A study of Mus musculus with 2 samples.

Results

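The RNAs described here are 9 long noncoding RNAs of the mouse, chosen by name: the nuclear RNAs Malat1 and Neat1, and the small nucleolar RNA (snoRNA) host genes Gas5, Snhg1, Snhg3, Snhg5, Snhg6, Snhg8 and Snhg12. Of these 9, 7 were matched by gene identifier in both gene tables, out of 43346 mouse gene rows in all. Snhg1 and Snhg8 had no matching row, and 0 of their annotated transcripts lay under any other row, so they were not analysed here beyond their annotation. Total RNA of embryonic liver at 14.5 days, from the B6NCrl strain, was sequenced in 2 biological replicates, which form 1 group with no mutation, treatment or second tissue. Each library came from 10 ng of RNA longer than 200 nucleotides, extracted with mirVana, with ERCC spike-ins added and a Smart-seq protocol linked in the labels. The labels call each sample a liver of 1 pup, yet give its sex as pooled male and female, and they give both samples the same donor identifier. Collection was on 17 July 2014 for replicate 1 and 15 July 2014 for replicate 2. With 1 group no test between conditions was possible. The spread between the 2 livers is the error given throughout, as mean ± SD (n = 2).

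A snoRNA host gene carries snoRNAs in its introns. After splicing, each snoRNA is trimmed out of the removed intron. Most snoRNAs guide a chemical modification of other RNAs, mainly ribosomal RNA. Most box C/D snoRNAs guide 2′-O-methylation and most box H/ACA snoRNAs guide pseudouridylation. The spliced host RNA is exported in many cases and is often short-lived, since it is read by ribosomes and degraded by nonsense-mediated decay. Malat1 and Neat1 stay in the nucleus instead. Malat1 gathers in nuclear speckles, which store splicing factors, and the long form of Neat1 is the scaffold of paraspeckles. At this age the liver holds the hepatoblasts, which are the liver's own precursors, together with large numbers of developing blood cells, so a level here is an average over both.

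Replicate 1 held 37059776 estimated reads on mouse genes and replicate 2 held 26908926. The 7 measured RNAs took 20799 of these reads in replicate 1 and 15176 in replicate 2, or 0.0563% ± 0.000196 (SD, n = 2). On the length-scaled unit TPM, in which the values of a library add up to a fixed total, they took 0.110% ± 0.00304 of mouse TPM. Rows that the annotation calls long noncoding numbered 6853 and took 2.63% ± 0.074 of the reads. Markers of hepatoblasts, red cells, neutrophils, macrophages and endothelium were all at 1 TPM or more in both livers, 34 of 34 genes. Of all mouse gene rows 26.2% were at that level, and the markers were chosen by name. Transcripts of each of these cell types were thus present.

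The snoRNAs themselves are shown first, since they define the host genes. Build GRCm38 of the mouse genome places 29 annotated snoRNA entries inside the 9 genes, 10 in Gas5, 8 in Snhg1, 5 in Snhg12, 2 each in Snhg3 and Snhg5, and 1 each in Snhg6 and Snhg8. Snord80 in Gas5 and Snora16a in Snhg12 are each entered 2 times at nearly the same place, which leaves 27 separate loci, 9 of them in Gas5 and 4 in Snhg12. All 29 entries lay in an intron of at least 1 host transcript. The sequences below are from GENCODE M21, and capitals mark the box letters. In box C/D snoRNAs these are TGATGA (C box) near the start and the last CTGA (D box), and in box H/ACA snoRNAs the ACA that stands 3 bases before the end. The C/D examples are Snord47 of Gas5 (chr1:161038082-161038158, plus strand), Snord50a and Snord50b of Snhg5 (chr9:88521529-88521600 and chr9:88521797-88521868, minus strand) and Snord87 of Snhg6 (chr1:9942463-9942549, minus strand). The H/ACA examples are Snora24 of Snhg8 (chr3:123507937-123508066, minus strand) and Snora73b of Snhg3 (chr4:132352322-132352526, minus strand), which is the U17 snoRNA needed for ribosomal RNA processing.
Snord47: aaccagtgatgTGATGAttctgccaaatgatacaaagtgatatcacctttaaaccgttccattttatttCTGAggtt
Snord50a: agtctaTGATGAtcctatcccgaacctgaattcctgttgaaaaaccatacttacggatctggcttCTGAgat
Snord50b: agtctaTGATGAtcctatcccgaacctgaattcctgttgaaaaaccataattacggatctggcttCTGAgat
Snord87: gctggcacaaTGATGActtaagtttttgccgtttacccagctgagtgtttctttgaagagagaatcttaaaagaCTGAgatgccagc
Snora24: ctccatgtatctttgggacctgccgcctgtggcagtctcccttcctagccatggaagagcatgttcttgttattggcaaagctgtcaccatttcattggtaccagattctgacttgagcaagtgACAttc
Snora73b: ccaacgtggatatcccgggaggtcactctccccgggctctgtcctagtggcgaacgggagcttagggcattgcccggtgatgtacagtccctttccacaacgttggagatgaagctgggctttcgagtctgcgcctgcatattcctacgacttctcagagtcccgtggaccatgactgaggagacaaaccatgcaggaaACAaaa
Snord50a and Snord50b differ at 1 of 72 bases, C50A, counted from the 5′ end with the base of Snord50a first. Of the 21 snoRNA entries under 100 nucleotides in the 9 genes, 18 (85.7%) hold TGATGA with a CTGA after it, against 69.9% of all 458 annotated mouse entries of that size. Of the 8 that are longer, 6 (75%) hold ACA 3 bases from the end, against 24.5% of 1049. Both searches read the snoRNA's own strand. The printed C/D examples all hold both boxes, whereas Snord78 of Gas5, not printed here, has a CTGA but no TGATGA.

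Most of these snoRNAs could receive no reads in the tables. Of the 29 entries, 27 had a row, and 20 of the 27 were under 100 nucleotides. Effective length, the number of positions a read can start from, was set in the files to 99 nucleotides below the annotated length, so all 20 had an effective length of 0 and were listed at 0 reads. With an effective length of 0 a row can receive no reads, so these zeros say nothing about the snoRNA. Of the 7 rows of 100 nucleotides or longer, 3 had at least 1 read in both livers. Snora73b had 27.5 and 11.6 reads in replicates 1 and 2, Snora24 had 8 and 7 reads, and Snora73a had 2.61 and 3.48 reads. Reads on Snora73a and Snora73b, a pair of U17 copies, are split between rows by estimation, with a posterior SD of 15.3% and 26.9% of the estimate for Snora73b and 103% and 65.2% for Snora73a. Only the Snora73 pair, at 205 nucleotides, is longer than the 200-nucleotide size limit of the RNA used, and the other snoRNAs of the 9 genes are between 60 and 137 nucleotides. These counts are given as values only.

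The 7 host and nuclear RNAs, in contrast, were all covered by at least 156 reads in each liver. All 7 of 7 reached 1 TPM in both livers, where 26.2% of all mouse gene rows and 3.94% of long noncoding rows did. The RNAs were picked by name, with earlier results of these data known, so this share is a description and no test was made. Their median was 51.25 and 51.15 TPM in replicates 1 and 2. It was 2.82 TPM over the 270 long noncoding rows at 1 TPM or more in both livers and 9.66 TPM over all genes at that level.

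**Figure D1:**
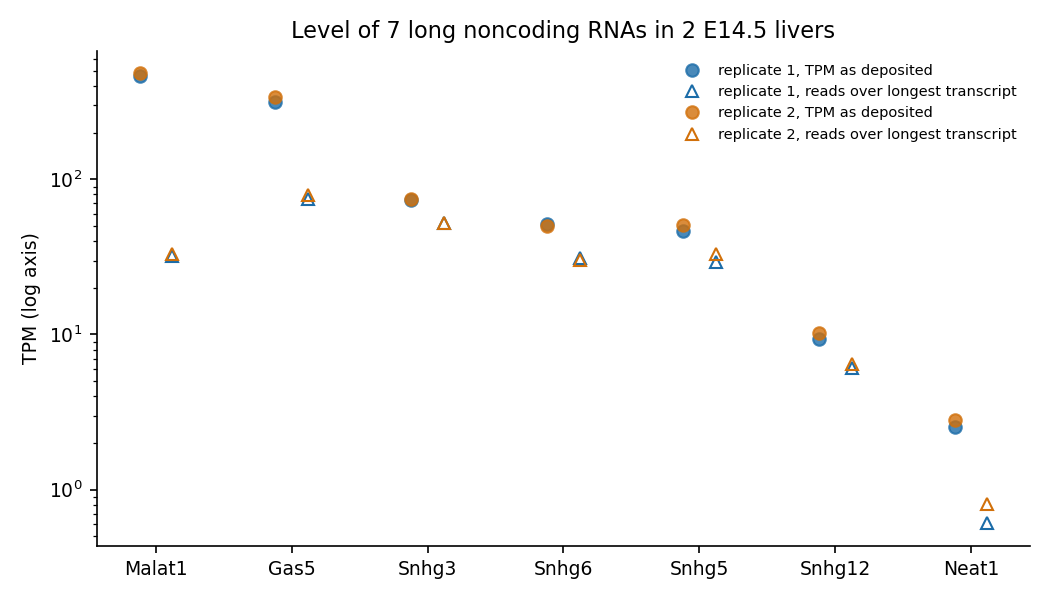
Level of each of the 7 measured RNAs in both livers, on a log axis in TPM. Filled circles are the deposited TPM and open triangles the same reads divided by the effective length of the gene's longest transcript; the mean of Malat1 is 475 TPM by the circles and 32.5 TPM by the triangles, and that of Snhg3 is 74.2 and 52.6 TPM.

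Malat1 (ENSMUSG00000092341.2, chr19:5795690-5802672, minus strand) was the highest of the 7 by TPM. Its levels were 466 and 484 TPM in replicates 1 and 2, or 475 ± 12.4 TPM (SD, n = 2), from 9217 and 6602 reads. That placed it at rank 3 among the long noncoding rows and at rank 188 of all mouse genes. Neat1 (ENSMUSG00000092274.2, chr19:5824708-5845478, minus strand), which lies 22035 nucleotides from Malat1 on the same strand, was the lowest of the 7. It stood at 2.53 and 2.81 TPM, or 2.67 ± 0.20 TPM, from 525 and 487 reads. The 2 nuclear neighbours therefore lay at opposite ends of the range on this scale, and their libraries do not overlap.

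The level of Malat1 rests on which transcript the reads were given to. Its full-length RNA, Malat1-201, is a single exon of 6983 nucleotides, and it received 1791 and 1245 reads, 19.4% and 18.9% of the gene's reads. The other reads, 7427 and 5356, went to Malat1-203, an annotated transcript of 485 nucleotides with 2 exons at the 5′ end of the gene. Malat1-203 took 80.6% of the gene's reads in replicate 1 (Wilson 95% interval 79.8 to 81.4) and 81.1% in replicate 2 (80.2 to 82.1), and the other 3 transcripts in the tables took 0. Per kilobase of transcript, Malat1-203 had 15312 and 11044 reads and Malat1-201 had 256 and 178 reads, a ratio of 59.7 and 61.9. These figures use the annotated length, whereas TPM uses the effective length, which is shorter by 99 nucleotides. In TPM, Malat1-203 made up 98.7% of the gene in both livers, at 460.1 and 478 TPM. The full-length RNA was at 6.22 TPM in each. Malat1-203 joins its exons of 434 and 51 nucleotides across an intron of 271 nucleotides that begins with GT and ends with AG. The junction is shown because a read crossing it belongs to the spliced form alone. It gives 30 bases of each exon on the minus strand of GRCm38, with the second exon in capitals. The first exon ends at 5802238 and the second begins at 5801966 on chromosome 19.
Malat1-203 junction: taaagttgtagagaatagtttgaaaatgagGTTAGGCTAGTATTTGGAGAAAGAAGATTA
The tables give reads per transcript and not per position, so reads across this junction were not analysed here.

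A further annotated row covers the same stretch on the opposite strand. Gm37376 (ENSMUSG00000102349.1, chr19:5801941-5802393, plus strand, 453 nucleotides), a transcript of unproven status that was picked out after its values were seen, is the exact reverse complement of Malat1 from nucleotide 280 to 732 of the gene. It covers the whole 271-nucleotide intron of Malat1-203 and shares 182 bases with its exons. Gm37376 held 2546 reads in replicate 1 and 1835 in replicate 2, or 172 and 178 TPM. The sources used here do not say if counting used strand, so reads of Malat1 and Gm37376 cannot be told apart. The rows confined to the first 757 nucleotides of the gene, Malat1-203 and Gm37376, thus held 84.8% and 85.2% of the reads on all Malat1 and Gm37376 rows, 9972 of 11763 and 7192 of 8437.

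**Figure D2:**
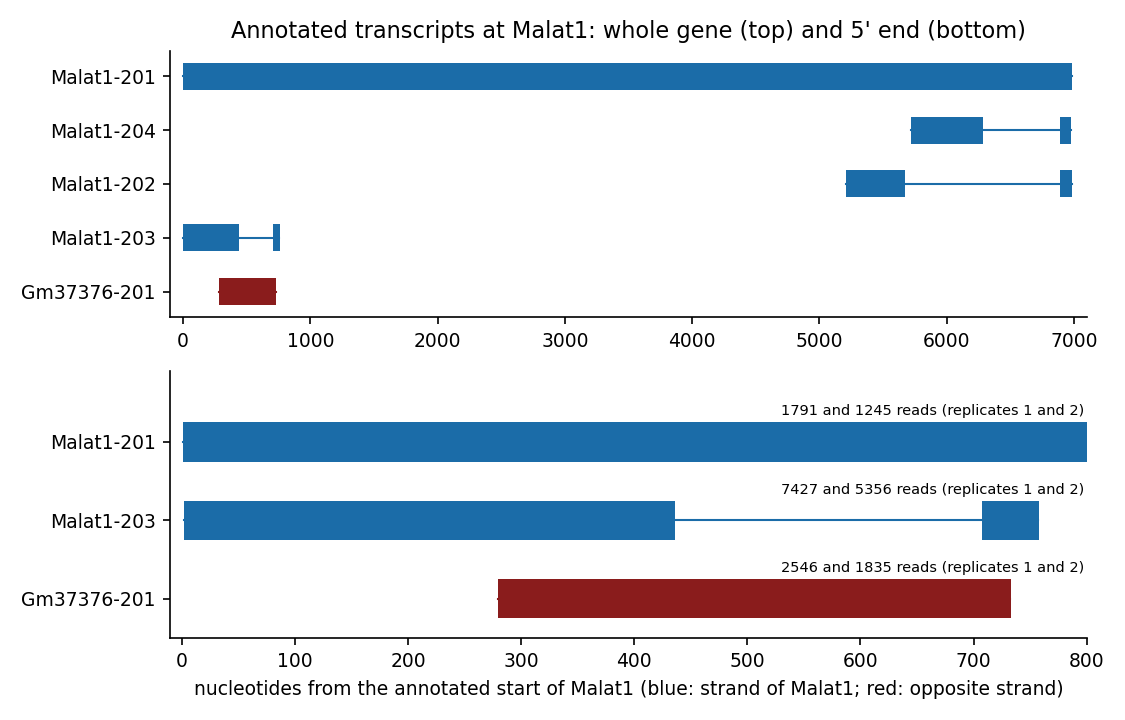
Transcripts of GENCODE M21 at Malat1 drawn to scale by distance in nucleotides from the gene's annotated start, with the whole gene in the upper panel and its 5′ end in the lower. Boxes are exons, lines introns, blue the strand of Malat1 and red the opposite strand; the reads printed beside each row show Malat1-203 above both Gm37376 and the full-length Malat1-201, although it is 485 nucleotides long.

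The order of the RNAs changed when another choice of transcript was made, with all reads set to the longest form. Dividing all reads of a gene by the effective length of its longest transcript, an alternative added after the values were seen, put Malat1 at 32.0 and 33.0 TPM, or 32.5 ± 0.70 TPM, 14.6-fold under the deposited level. With the reads of Gm37376 added it was at 40.9 and 42.2 TPM. Gas5 was then the highest at 77.5 ± 3.1 TPM and Snhg3 next at 52.6 ± 0.082 TPM. The longest form can be a minor one. For Gas5 it is Gas5-218, a retained-intron form of 2556 nucleotides with a mean of 2.87% of TPM and 12.1% of reads. Neat1 stayed lowest at 0.709 ± 0.14 TPM. The same step lowered Gas5 4.24-fold, Neat1 3.76-fold and Snhg3 1.41-fold, so the place of Malat1 relative to other genes depends on the length used.

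Neat1 showed the same kind of dependence on a smaller scale. Its long form, Neat1-201, is a single exon of 20771 nucleotides, and its short form, Neat1-202, has 3004 nucleotides near the 5′ end. In TPM the short form led, with 86.7% of the gene in replicate 1 and 80.3% in replicate 2, at 2.19 and 2.26 TPM, and the long form was at 0.30 and 0.49 TPM. By reads the forms were close and their order differed between livers. Neat1-201 had 257 of 525 reads in replicate 1, or 49.0% (Wilson 95% interval 44.7 to 53.2), and 295 of 487 in replicate 2, or 60.5% (56.2 to 64.8). The intervals do not overlap, but they cover counting error only, and the long form held 54.8% ± 8.2 of reads (SD, n = 2). Since all of Neat1-202 except its splice junction lies within Neat1-201, the counting model divides the reads of the shared stretch between them. Per kilobase, Neat1-202 had 88.6 and 63.4 reads and Neat1-201 had 12.4 and 14.2 reads. Whether the library protocol captures both forms equally was not tested, so these shares describe reads and not amounts in the cell.

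**Figure D3:**
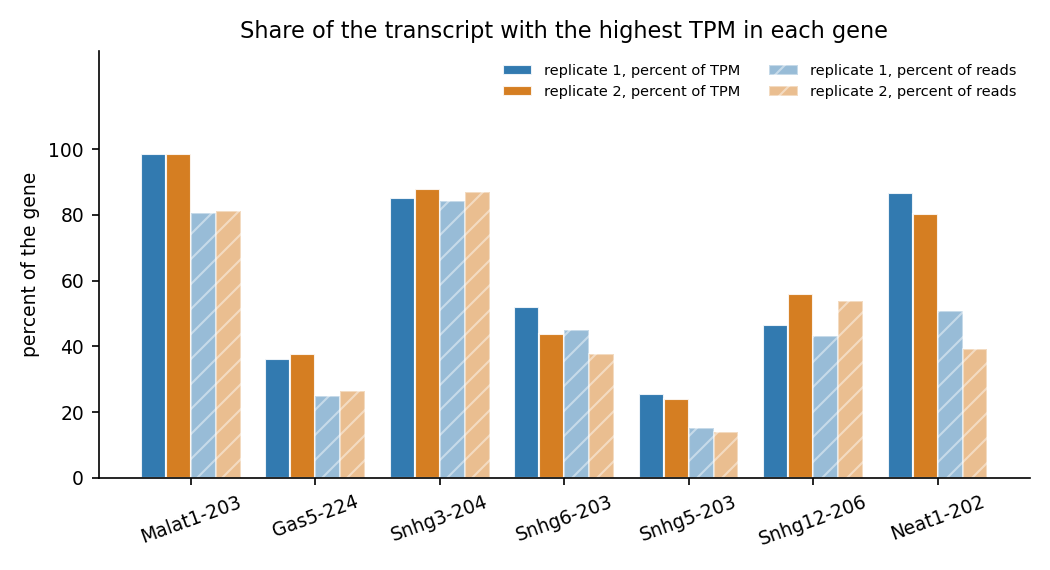
Share of each gene held by its transcript with the highest TPM, as percent of the gene's TPM (solid bars) and percent of its reads (hatched bars), for both livers. The shares by TPM and by reads differ most for Neat1-202, at 83.5% of TPM and 44.9% of reads on average, and least for Snhg3-204.

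Gas5 (ENSMUSG00000053332.9, chr1:161034422-161038539, plus strand), first found as a transcript of growth-arrested mouse cells, was the highest of the snoRNA hosts. Its levels were 317 and 340.3 TPM in replicates 1 and 2, or 328 ± 16.8 TPM (SD, n = 2), from 7740 and 5690 reads, at rank 5 among the long noncoding rows and at rank 280 of all genes. On this scale its lower liver was more than 4 times the highest liver of any other host, but over the longest transcript it was at 75.3 and 79.7 TPM and Snhg3 at 52.5 and 52.6 TPM. Its reads were spread over many transcripts: of 25 annotated, 17 held at least 1% of its TPM in either liver and 3 held at least 10%. Gas5-224, a fully spliced form of 12 exons and 502 nucleotides, led with 36.0% and 37.8% of TPM, 114 and 128 TPM. Gas5-210 held 18.5% and 17.1%, and the retained-intron form Gas5-213 held 8.14% and 10.7%. The 20 transcripts annotated as retaining an intron together held 44.8% of TPM in each liver, and 60.3% and 59.7% of reads.

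Snhg3, Snhg6 and Snhg5 formed a middle group. Snhg3 (ENSMUSG00000085241.3, chr4:132348014-132353686, minus strand), host of the U17 pair, was at 74.2 and 74.3 TPM, or 74.2 ± 0.12 TPM, from 1058 and 737 reads. Snhg3-204, with 3 exons and 437 nucleotides, held 85.1% and 87.8% of its TPM, and Snhg3-203 held 10.7% and 8.01%. No Snhg3 transcript is annotated as retaining an intron.

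Snhg6 (ENSMUSG00000098234.3, chr1:9941959-9944118, minus strand), host of Snord87, was at 51.3 and 49.9 TPM, or 50.6 ± 0.93 TPM, from 928 and 631 reads. Snhg5 (ENSMUSG00000097195.4, chr9:88521050-88522929, minus strand), host of the Snord50 pair, was at 46.8 and 51.2 TPM, or 49.0 ± 3.1 TPM, from 1117 and 873 reads. Snhg6 was above Snhg5 in replicate 1 and below it in replicate 2, so the order of these neighbours does not hold beyond their spread. All other neighbours in the order of the 7 were in the same order in both livers.

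Their transcript make-up differed. Snhg6-203 held 52.0% and 43.9% of the TPM of Snhg6, Snhg6-204 held 19.3% and 24.4%, Snhg6-205 held 18.8% and 20.01%, and Snhg6-202 held 9.93% and 11.7%. Snhg5 had no dominant form: Snhg5-203 held 25.6% and 23.9%, and 3 retained-intron transcripts (Snhg5-204, Snhg5-206 and Snhg5-205) held between 15.5% and 18.9% each. A transcript of 504 nucleotides that is not in GENCODE M21 held 13.8% and 10.2%. The 3 retained-intron forms of Snhg5 together held 50.8% and 55.9% of its TPM, and 63.2% and 67.0% of its reads.

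Snhg12 (ENSMUSG00000086290.4, chr4:132308623-132311024, plus strand), which carries both C/D and H/ACA snoRNAs, was the lowest host. It stood at 9.36 and 10.2 TPM, or 9.79 ± 0.60 TPM, from 213 and 156 reads, and lies 36989 nucleotides from Snhg3 on the opposite strand. Snhg12-206 led with 46.4% and 56.0% of its TPM. Snhg12-207 held 28.6% and 13.9%, Snhg12-205 held 19.8% and 11.2%, and Snhg12-202 held 2.70% and 15.4%. These last shares rest on few reads: Snhg12-202 had 5.14 reads in replicate 1, or 2.42% (Wilson 95% interval 1.01 to 5.38), and 22.2 reads in replicate 2, or 14.2% (9.50 to 20.4). Snhg12-202 and Snhg12-206 share 4 of their 5 exons, and no replicate test of the difference was possible.

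The host RNAs differed in how much of their signal lay on transcripts that still hold a complete snoRNA within an exon. Of the 25 Gas5 transcripts, 16 do so, and they held 47.0% and 44.7% of Gas5 reads, or 45.8% ± 1.6 (SD, n = 2). Of the 6 Snhg5 transcripts in GENCODE M21, 2 do so, with 39.2% and 40.8% of reads, or 40.0% ± 1.2. For Snhg12, 5 of 7 do so, with 54.3% and 31.9% of reads, or 43.1% ± 15.8, so this share varied between livers. In Snhg3 and Snhg6, 0 of 5 annotated transcripts each keep their snoRNA in an exon, so the share is 0 by annotation. The tables have no row for unspliced precursors.

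Some rows overlap the hosts and could share reads with them. Rcc1, a protein-coding gene on the strand of Snhg3 that spans most of it, held 2007 and 1588 reads, at 22.7 and 26.2 TPM. Gm17300, antisense to Snhg3, held 189 and 95.01 reads. Zbtb37, antisense to the start of Gas5, was at 1.41 and 1.39 TPM, and Mcmdc2, antisense to the end of Snhg6, was at 0.68 and 0.69 TPM. The posterior SD in replicates 1 and 2 was 0.034% and 0% of the count for Rcc1, and 4.72% and 6.60% for Gm17300. Gm17300 and Snhg3 lie on opposite strands, so their reads could be mixed if counting ignored strand. The antisense protein-coding rows overlapping Gas5 and Snhg6 were low. The posterior SD of the estimated counts was at most 0.66% for each of the 7 RNAs in both livers, which covers how reads were divided among annotated rows but not strand.

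The promoters were read for the features known from snoRNA host genes, many of which belong to the class of genes that begin transcription within a run of pyrimidines (5′ terminal oligopyrimidine, TOP). RefSeq promoter entries on GRCm38.p6 were found for 7 of the 9 genes, with 8 start sites, and not for Neat1 and Snhg6. The windows below run from 45 bases before to 30 bases from the annotated start. Capitals mark TATAA lying 40 to 20 bases before the start, where present, and the longest run of C or T that begins within 10 bases of the start. They are shown for Malat1 (chr19:5802643-5802717, minus strand), the second start of Gas5 (chr1:161035121-161035195, plus strand), which lies at the first exon of Gas5-224, Snhg3 (chr4:132353657-132353731, minus strand), Snhg5 (chr9:88522868-88522942, minus strand) and Snhg12 (chr4:132308633-132308707, plus strand).
Malat1: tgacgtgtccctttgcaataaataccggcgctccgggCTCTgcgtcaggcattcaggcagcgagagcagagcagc
Gas5: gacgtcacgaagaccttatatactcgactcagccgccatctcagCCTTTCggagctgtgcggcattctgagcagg
Snhg3: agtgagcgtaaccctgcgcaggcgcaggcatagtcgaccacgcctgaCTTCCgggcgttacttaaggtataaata
Snhg5: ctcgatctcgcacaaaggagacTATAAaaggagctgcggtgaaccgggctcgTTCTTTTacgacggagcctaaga
Snhg12: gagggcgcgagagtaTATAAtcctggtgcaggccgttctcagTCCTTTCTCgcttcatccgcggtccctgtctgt
TATAA on the gene's strand was found at 3 of the 8 starts (Snhg5, Snhg8 and Snhg12), against 3.51% of 32534 RefSeq promoters, and on either strand at 5 of 8 (these 3, Snhg1 and the second start of Gas5), against 4.35%. A run of 5 or more C or T was found at 6 of 8 starts, against 37.9% by the same rule. The longest were 9 bases in Snhg12 and Snhg1 and 7 bases in Snhg5 and Snhg8. Only the runs of Snhg12, Snhg8 and the second start of Gas5 include the annotated start. Those of Snhg3, Snhg1 and Snhg5 begin after it, at bases 3, 5 and 8 with the start as base 1. Both features stood together at 3 of 8 starts, against 1.47%. The run in Malat1 was 4 bases, the median of all promoters, with no TATAA in the window. In Snhg3 TATAA lies after the annotated start, outside the searched stretch. The TATAA and pyrimidine matches describe letters in a window and not use of a start.

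The last comparison was between the 2 livers. Of the 7, 5 had a mean of 10 TPM or more, and 0 of those 5 differed by 0.32 or more in either direction on the log2(TPM + 1) scale, where 6.6% of 5576 genes at that level did. With so low a share over all genes, a count of 0 among 5 shows nothing particular to these RNAs. Neat1 and Snhg12 were under the 10 TPM limit. On the log2(TPM + 1) scale the ratio of replicate 2 over replicate 1 was between -0.04 (Snhg6) and 0.13 (Snhg5), with a median of 0.10 beside 0.09 over the 5576 genes. On depth-scaled counts (CPM) with TMM factors (trimmed mean of M values) the 5576 genes had a median of -0.02 and the 7 RNAs a median of -0.04. The sign of a single ratio therefore depended on the scaling: 6 of 7 were above 0 by TPM and 2 of 7, Neat1 and Snhg5, by scaled counts. For Malat1 the log2 ratio was 0.05 by TPM and -0.07 by scaled counts (95% counting interval -0.12 to -0.03).

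Neat1 was the RNA whose reads differed most between the livers. Its scaled counts were 17.8 CPM in replicate 2 and 14.4 CPM in replicate 1, a log2 ratio of 0.30 (95% counting interval 0.12 to 0.48), while log2(TPM + 1) gave 0.11. The length the files used for Neat1 was 6063 nucleotides in replicate 2 and 5062 in replicate 1, with the larger share of the long form in replicate 2. The counting intervals of Gas5, Snhg3, Snhg5 and Snhg12 included 0, and that of Snhg6 was -0.30 to -0.003. Neutrophil markers were lower in replicate 2, with summed levels of 1891 and 2622 TPM in replicates 2 and 1. Of these markers 5 of 6 passed the 0.32 limit, where 6.6% of the 5576 genes did. Hepatoblast markers summed to 23231 and 22032 TPM in replicates 2 and 1, and red cell markers to 345616 and 359524 TPM. The part of these differences in the ratios of the 7 RNAs was not tested, and in bulk tissue fewer cells of a type and less RNA per cell cannot be told apart.

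**Figure D4:**
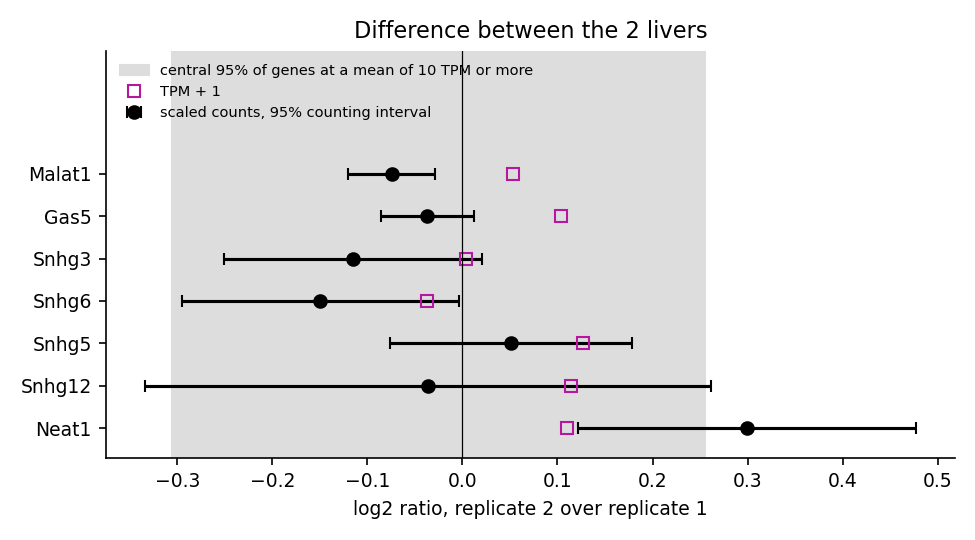
Log2 ratio of replicate 2 over replicate 1 for each of the 7 RNAs, from TMM-scaled counts with a 95% counting interval (black) and from TPM plus 1 (open squares). The grey band spans the central 95% of the 5576 genes at a mean of 10 TPM or more, -0.31 to 0.26. It was taken on scaled counts plus 1, while the black points have no 1 added. Neat1 lies outside the band at 0.30, and at 0.28 with 1 added, but is under that level itself.

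By deposited TPM, further snoRNA hosts were at lower levels than Gas5, Snhg3, Snhg6 and Snhg5 in both livers. Zfas1, Snhg20 and Epb41l4aos, among others, were above Snhg12 at 9.36 and 10.2 TPM. Levels of the further hosts over the longest transcript were not computed. Of 13 named, 10 were measured and 9 were at 1 TPM or above in both livers. Over all mouse gene rows 26.2% were, and over long noncoding rows 3.94%. The list's medians were 11.1 and 10.2 TPM, beside 51.2 TPM for the 7 RNAs. Zfas1, a C/D snoRNA host beside Znfx1, was highest at 36.9 and 31.1 TPM. Snhg20 was at 24.5 and 24.4 TPM, Epb41l4aos at 19.2 and 18.1 TPM, and Snhg11 was lowest at 0.33 and 0.50 TPM. Of the other nuclear or long noncoding RNAs, 11 of 14 reached 1 TPM, beside the same shares, with a list median of 3.53 and 4.13 TPM. Both lists were chosen by name, so these counts are a description. H19, the imprinted fetal RNA, stood between Malat1 and Gas5 at 366 and 401 TPM. The imprinted Meg3 was at 90.3 and 103 TPM, Rpph1, the RNA of RNase P, at 70.7 and 73.2 TPM, and Miat was listed at 0 TPM, with 0 and 1 reads.

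Transcripts of the listed proteins that work in speckles and paraspeckles were all detected. Of all mouse gene rows 26.2% were at 1 TPM or more in both livers. These lists were chosen by name, so the counts are a description. Of the paraspeckle proteins, 12 of 12 were at 1 TPM or above in both livers, and their median was 27.1 and 29.1 TPM. Neat1-201 was listed at 0.30 and 0.49 TPM. How well the library protocol captures it beside messenger RNAs was not tested, so these levels are not ranked against each other. Hnrnpk was highest at 501 and 538 TPM, then Ewsr1 at 91.7 and 108 TPM and Nono, a core paraspeckle protein, at 84.6 and 93.1 TPM, and Taf15 was lowest at 1.79 and 1.55 TPM. Of the speckle and serine-arginine splicing proteins, 13 of 13 were at 1 TPM or above in both livers, with a median of 88.2 and 87.8 TPM. Srsf2 was at 353 and 382 TPM, Srsf3 at 295 and 313 TPM, Srsf5 at 132 and 155 TPM and Tra2a at 11.7 and 12.3 TPM.

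Transcripts of the snoRNP proteins, which bind the snoRNAs, were likewise detected for every gene listed. The share over all mouse gene rows was 26.2%, and these genes too were chosen by name. Of the box C/D proteins and assembly factors, 11 of 11 reached 1 TPM, with a median of 52.4 and 61.4 TPM, led by the core proteins Snu13 at 166 and 174 TPM, Nop56 at 147 TPM in both and Nop58 at 102 and 108 TPM. The assembly factor Nufip1 was lowest at 3.78 and 4.32 TPM. Fbl, the methyltransferase of the C/D particle, was at 24.5 and 19.2 TPM in replicates 2 and 1. Its log2 ratio of 0.34 narrowly passed the 0.32 limit, the 1 of 9 at a mean of 10 TPM or more to do so. Over the 5576 genes at that level the share was 6.6%, so 1 of 9 shows nothing particular to this list. Of the box H/ACA proteins, 6 of 6 reached 1 TPM, with a median of 35.1 and 40.5 TPM. Among them were Nop10 at 135 TPM in both, Nhp2 at 110.4 and 118 TPM, Dkc1, the pseudouridine synthase, at 51.9 and 63.8 TPM, and Naf1 at 2.04 and 1.60 TPM.

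The nonsense-mediated decay factors, which degrade many spliced host RNAs, were lower. All 10 of 10 reached 1 TPM in both livers, where 26.2% of all mouse gene rows did. The list median was 6.74 and 7.89 TPM. Smg5 was highest, at 19.6 and 15.4 TPM in replicates 2 and 1. Its log2 ratio of 0.33 narrowly passed the 0.32 limit, the 1 of 2 at a mean of 10 TPM or more to do so. Upf3a was at 11.3 and 12.2 TPM, Smg9 at 9.12 and 9.72 TPM and Smg6 at 2.63 and 2.78 TPM. In the paraspeckle, speckle, H/ACA, further host and other long noncoding lists, 0 of the genes at a mean of 10 TPM or more passed the 0.32 limit. With 6.6% of the 5576 genes at that level past it, these counts of 0 or 1 show nothing particular to the lists.

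**Figure D5:**
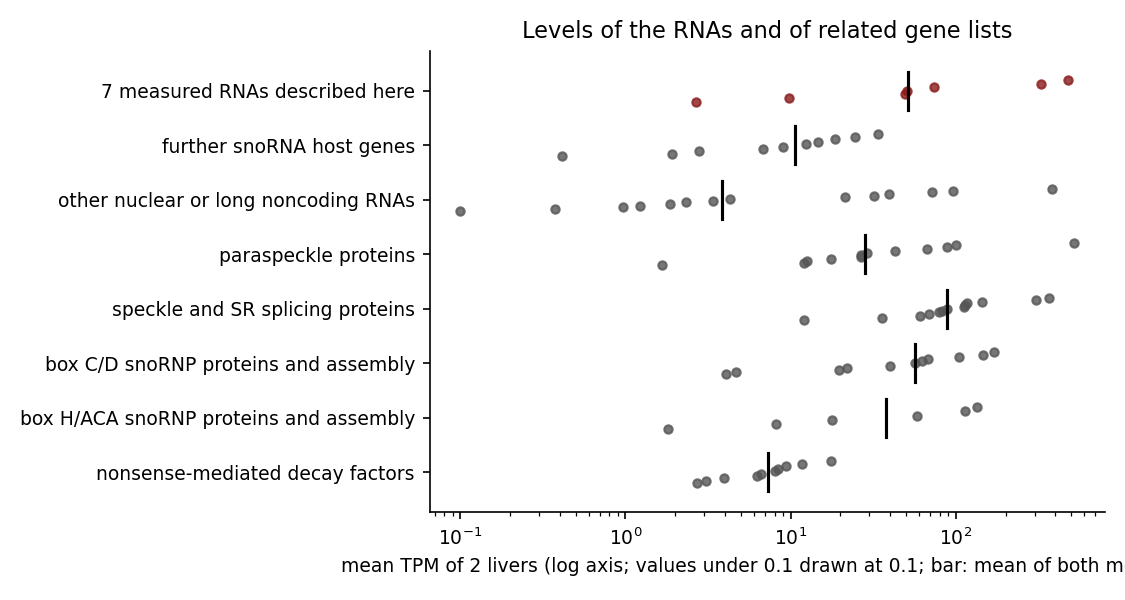
Mean TPM of both livers on a log axis for the 7 measured RNAs (red, top row) and 7 lists of related genes (grey), with 1 dot for each gene and a bar at the mean of the 2 library medians. The bar lies at 51.2 TPM for the 7 RNAs, at 10.7 TPM for the further snoRNA hosts and at 88.0 TPM for the speckle and splicing proteins; values under 0.1 are drawn at 0.1.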

How the data were processed

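RNA-seq of 2 embryonic liver libraries (1 group) was analysed from the gene and transcript tables the authors deposited, made on mm10 with GENCODE M4, as their accompanying description says. The aligner and the counting program were not given in the sources used here. The expected counts, TPM, FPKM and the percent of a gene's TPM on each transcript (IsoPct) were deposited by the authors per the file headers, with posterior SDs. Expected counts are not normalized, and TPM is scaled by length over all rows.

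Names came from GENCODE M21 by unversioned identifier (42462 of 43346 mouse rows); spike-in and numeric rows were left out. The members and gene lists were chosen with earlier results of these data known. Named genes are the members, their transcripts at 10% or more in either liver, and the 3 highest and the lowest gene of each list; Gm37376, Fbl and the overlapping rows were named after values were seen. Ratios are log2(TPM + 1), replicate 2 over replicate 1, so they understate differences of low genes. TMM factors (0.981 and 1.02) came from edgeR 4.0.16 on rounded counts, with no test. Intervals cover counting error only, since amplified reads are not independent molecules. A chi-square of 11.1 per degree of freedom (14850) separates the libraries, so they are not copies. The ratio calls were tried on simulated counts with counting error only. That is less spread than these libraries show, so the trial does not give the rate of calls expected between 2 livers. Alternatives were other pseudocounts, units, scalings and estimators, the length used and each library alone. Python 3.11.15, numpy 2.4.6, pandas 2.3.3, scipy 1.17.1, matplotlib 3.10.9 and R 4.3.3 were used.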

Additional observations from a re-analysis of the deposited data

How the results depend on the processing

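The median of the 7 RNAs, 51.2 TPM, was 52.6 by FPKM, 93.2 without the adult globin genes, 58.8 without mitochondrial genes and rRNA, 50.3 by posterior mean TPM and 32.0 with the length of the longest transcript, which was added after the data were seen; leaving out either library gave 51.15 to 51.25. Their share of mouse reads, 0.0563%, was 0.110% of TPM, and 0.0561% to 0.0564% by single library. All 7 stayed detected at 0.1 TPM and with at least 10 reads, and 6 at 5 TPM. The median log2 ratio, 0.10, was 0.053 with a pseudocount of 5, 0.050 by FPKM, 0.051 without adult globins and -0.037 on TMM-scaled counts; the cause was not tested. None of the 5 RNAs at a mean of 10 TPM or more differed by 0.32 (log2) or more between the livers with pseudocounts of 0.1 or 5, by FPKM, on TMM-scaled counts or without adult globins. The median share of the leading transcript, 54.0% of TPM, was 42.0% of reads, and 52.0% to 56.0% by single library. No paired analysis was possible because there is 1 group. Depth limits Snhg12 and its transcripts most, with 213 and 156 reads, and shares of reads among overlapping transcripts rest on the counting model.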
